A study of Mus musculus with 6 samples.

Results

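The transcripts described here are those of 10 Kruppel-like factors, Klf2, Klf3, Klf4, Klf5, Klf6, Klf7, Klf9, Klf10, Klf13 and Klf15, out of 22183 genes in the deposited table. They were taken by gene symbol, and each matched 1 row. The rule used no measured value, although the genes were picked with earlier results of these data known. The cells came from wild-type (WT) male C57BL/6J mice, 8 to 10 weeks old, that received Dianeal peritoneal dialysis (PD) fluid with 4.25% glucose or saline by daily injection into the peritoneal cavity for 6 weeks. Each group held 3 mice with a library each (n = 3), here called PD mice and saline mice, and the comparison asked how the transcriptome of peritoneal endothelial cells (ECs) differed after exposure to the fluid. The labels describe the cells as ECs purified with magnetic beads against CD31, an adhesion molecule of ECs that some leukocytes also carry, while the methods of the study describe digestion of the mesentery followed by flow sorting of CD31+ CD45- cells. Saline served as the sham control.

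Kruppel-like factors are zinc-finger transcription factors that bind GC-rich and CACCC-type DNA elements. In ECs, KLF2 and KLF4 are induced by laminar blood flow through the kinases MEKK3, MEK5 and ERK5 and the MEF2 factors, and they keep the endothelium quiescent, anti-thrombotic and anti-inflammatory. Other members respond to injury and TGF-beta (KLF6, KLF10) or to glucocorticoid hormones (KLF9, KLF15), and several, KLF2, KLF3 and KLF13 among them, are also used by lymphocytes.

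The start regions of Klf2 and Klf4 are shown because these are the flow-responsive pair and because the Klf2 window holds a MEF2-type element. The windows run from 250 bases before to 50 bases after the annotated start (RefSeq, GRCm38.p6), chr8:72318812-72319111 on the plus strand for Klf2 and chr4:55532426-55532725 on the minus strand for Klf4. Capitals mark CACCC on either strand or a loose MEF2-type pattern, which is CTA and TAG separated by any 4 bases.
Klf2: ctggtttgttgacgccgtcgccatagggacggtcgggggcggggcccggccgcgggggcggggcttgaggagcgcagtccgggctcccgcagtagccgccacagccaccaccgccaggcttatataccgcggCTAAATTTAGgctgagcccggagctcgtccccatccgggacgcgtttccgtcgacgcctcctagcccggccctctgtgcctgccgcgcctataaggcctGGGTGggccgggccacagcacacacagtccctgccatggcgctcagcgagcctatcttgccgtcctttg
Klf4: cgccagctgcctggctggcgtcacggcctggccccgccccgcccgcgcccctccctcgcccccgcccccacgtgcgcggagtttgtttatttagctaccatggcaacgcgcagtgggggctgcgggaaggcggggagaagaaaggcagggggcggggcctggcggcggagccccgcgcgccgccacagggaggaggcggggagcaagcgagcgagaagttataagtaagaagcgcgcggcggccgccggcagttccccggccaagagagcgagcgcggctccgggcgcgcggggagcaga
The Klf2 window held the loose MEF2-type pattern at position -118 from the start. This pattern was present in 1 of the 8 members with an entry and in 3.69% of 32851 mouse promoter windows of the same length. A stricter form of the motif was not searched. A CACCC element stood in 6 of the 8 members, against 57.5% of all windows, and Klf4 and Klf6 held none. The GC box GGGCGG stood in 7 of the 8, against 35.7%, and in Klf9 it was not found. The palindromic glucocorticoid-receptor motif (GNACA and TGTNC separated by any 3 bases) was in 0 of the 8 and in 0.475% of all windows, also for Klf9 and Klf15. Motifs were searched on both strands, and Klf5 and Klf10 are named only.

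The libraries held 21973426 to 26374292 counts, and 14005 genes passed the filter on low counts. In edgeR's quasi-likelihood test, 58.9% of them passed an adjusted p of 0.05, 31.1% higher and 27.8% lower in PD mice. Marker sums (in CPM, counts scaled to library size with TMM factors, which set the bulk of genes level) rose for 12 endothelial genes from 1184-1220 in saline mice to 1957-2110 in PD mice. Of the 12, 11 were called higher, and Pecam1, the gene of CD31, was at 469 ± 19.4 and 514 ± 7.85 CPM (adjusted p = 0.0704). Leukocyte markers (5 genes) were at 6401-6764 and 4999-5068, and Ptprc, the gene of CD45, was at 2295, 2520 and 2304 CPM in saline mice and 1405, 1482 and 1531 CPM in PD mice, so the RNA of CD45-bearing cells was present in all 6 libraries. The 5 B cell markers were at 5012-5303 in saline mice and 2358-2390 in PD mice, while the 7 T and NK cell markers were at 1388-1487 and 1297-1420. The 6 macrophage markers were at 2007-2124 and 8126-8851, the 5 fibroblast markers at 71.9-76.6 and 695-755, the 5 mesothelial markers at 10.5-14.4 and 126-145, the 5 smooth muscle and pericyte markers at 261-279 and 398-444, and the 5 epithelial and acinar markers at 6.56-9.36 and 3562-4303. No marker was at 0 in every mouse of a group. In such bulk samples, fewer cells of a type and less RNA per cell cannot be told apart, and the part of these cell types in the results on Kruppel-like factors was not tested.

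Of the 10 Kruppel-like factors, 8 rose and 2 fell in PD mice at an adjusted p of 0.05 (edgeR's quasi-likelihood test), against 31.1% and 27.8% of all genes tested. When the libraries were scaled to the 12 endothelial markers instead, 2 members (Klf5 and Klf15) were called higher and 7 lower, against 7.35% and 73.6% of all genes, and the median log2 fold change of all genes moved from 0.02 to -1.03. Relative to that centre, the same 8 members lay above and the same 2 below, from -0.76 for Klf13 to 1.98 for Klf15. By construction this scaling shifts all genes alike, so that placing repeats the TMM result and is no separate support for it. Because the libraries also held RNA of other cell types, values with endothelial scaling, here and below, are not levels per EC. The median log2 fold change of the members was 0.65 with TMM scaling. The levels of the 2 groups did not overlap for any member, which held for 65.6% of all genes (PD mice above in 34%, below in 31.6%). With TMM scaling only Klf5, Klf9 and Klf15 changed by 2-fold or more, a size reached by 18.1% of all genes tested.

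**Figure D1:**
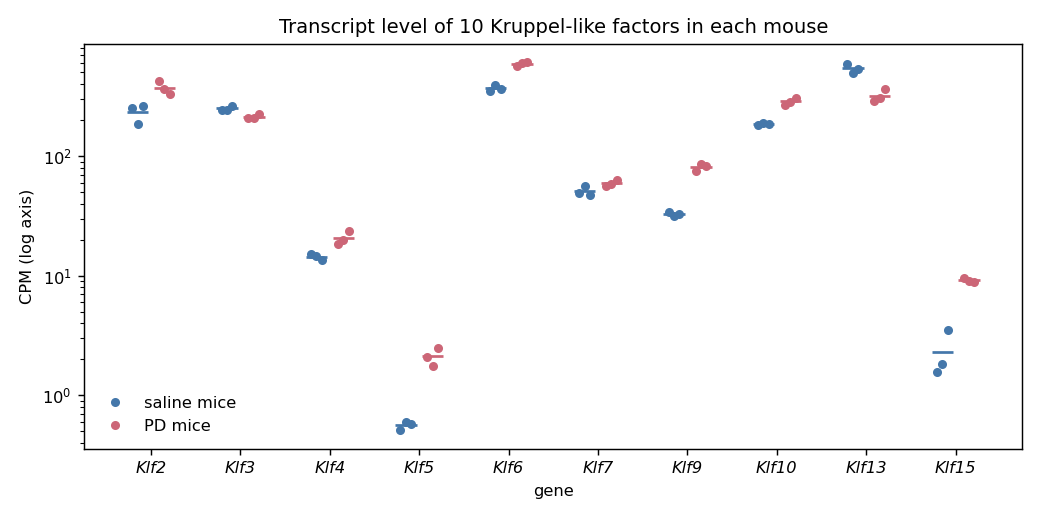
CPM of each of the 10 Kruppel-like factors (x axis) in every mouse on a log axis, with dots for single mice (3 saline, 3 PD) and short lines for group means. The dots of the 2 groups do not overlap for any gene, with PD mice lower only for Klf3 and Klf13 under this TMM scaling.

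Klf2, the main flow-induced factor of the endothelium, which also keeps naive T cells quiescent and circulating, was higher in PD mice by 1.6-fold. Its gene lies on chromosome 8 (72319033 to 72321656, plus strand, GRCm38; ENSMUSG00000055148). Levels in saline mice were 250, 185 and 261 CPM, and levels in PD mice were 423, 365 and 328 CPM. The lowest PD mouse therefore exceeded the highest saline mouse, although the 2nd saline mouse stood well below the others of its group. The means were 232 ± 41.4 (SD, n = 3) and 372 ± 48 CPM, and the log2 fold change was 0.68 (SE 0.13, adjusted p = 0.000876, edgeR's quasi-likelihood test). Without the 2nd saline mouse it was 0.54, and with endothelial scaling -0.36.

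Klf4, a flow-responsive factor that also acts in monocytes and in epithelial barriers, rose by 1.42-fold from a far lower level. It lies on chromosome 4 (55527143 to 55532466, minus strand; ENSMUSG00000003032). Saline mice had 15.3, 14.5 and 13.5 CPM, and PD mice had 18.4, 19.7 and 23.4 CPM. Every PD mouse was above every saline mouse, with the 3rd PD mouse the highest. The means were 14.5 ± 0.904 and 20.5 ± 2.6 CPM, with a log2 fold change of 0.50 (SE 0.12, adjusted p = 0.00433, edgeR's quasi-likelihood test) and of -0.54 with endothelial scaling.

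The pair did not move by detectably different amounts. The log2 ratio of Klf4 to Klf2 CPM, in which library scaling cancels, was -4.03, -3.67 and -4.27 in saline mice and -4.52, -4.22 and -3.81 in PD mice. The ranges overlapped widely, and the difference of the means (PD minus saline) was -0.19 (two-sided exact permutation p = 0.5, where 3 mice against 3 cannot go below 0.1). The GC correction turned the difference to 0.13, and leaving out 1 mouse moved it between -0.38 and -0.02. Because the design could not reach a p of 0.05, this comparison does not show that the pair acted alike.

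The libraries differed in how counts depended on the GC content of transcripts, and correcting for it moved Klf2 the most among the members. Smoothed over 13987 genes, the log2 deviation at 60% GC minus that at 40% GC was -0.205, -0.575 and -0.119 in saline mice and 0.51, 0.305 and 0.166 in PD mice. GC-rich genes were thus lower in all saline libraries and higher in all PD libraries. Because the trend separates the groups, a technical bias and a real difference in GC-rich genes cannot be told apart. A correction may remove either. The longest Klf2 transcript is 61.6% GC, the highest among the members (all genes: median 48.7%), and the 2nd saline mouse and the 1st PD mouse, at the ends of the GC trend, also held the lowest and the highest Klf2 level. With a correction for GC content in the same edgeR test, chosen after seeing the data, the log2 fold changes were 0.18 for Klf2 (adjusted p = 0.0215) and 0.31 for Klf4 (54.6% GC, adjusted p = 0.054). Klf15 (54.9% GC) had 1.79 after the correction against 1.98 before, and Klf13 (55.5% GC) had -0.97 against -0.75. Klf6, the member lowest in GC at 42.4%, had 0.78 after the correction against 0.67 before. After the correction 7 members were called higher and 2 lower, against 28.1% and 30.6% of all genes.

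**Figure D2:**
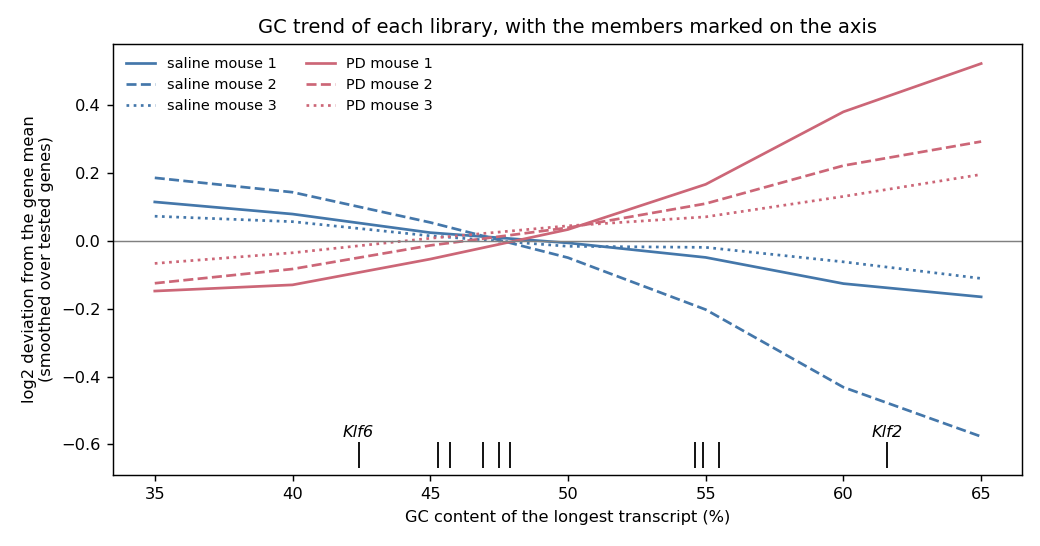
Smoothed log2 deviation of each library from the gene mean (y axis) against the GC content of the longest transcript (x axis, %), with 1 line per mouse and ticks for the 10 members. At 60% GC the saline lines lie below zero and the PD lines above it, and Klf2 is the member farthest to the right.

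Klf6 and Klf10, which respond to injury and to TGF-beta, rose by similar factors. Klf6, an early-response factor of injured vessels that also acts in macrophages, lies on chromosome 13 (5861482 to 5870394, plus strand; ENSMUSG00000000078). It was at 351, 391 and 366 CPM in saline mice and 563, 600 and 607 CPM in PD mice. All PD mice stood far above the saline mice, with little spread in either group. The means were 370 ± 20.3 and 590 ± 23.4 CPM, a 1.6-fold difference (log2 fold change 0.67, SE 0.06, adjusted p = 6.92e-06, edgeR's quasi-likelihood test). Klf10, known as TGF-beta-inducible early gene, lies on chromosome 15 (38291463 to 38300706, minus strand; ENSMUSG00000037465). Its levels were 182, 189 and 187 CPM in saline mice and 267, 285 and 307 CPM in PD mice. The saline mice were nearly alike, and the lowest PD mouse was well above them. The means of 186 ± 4.02 and 286 ± 19.9 CPM differed by 1.54-fold (log2 fold change 0.62, SE 0.07, adjusted p = 1.7e-05). Scaled to the endothelial markers, Klf6 was at -0.37 and Klf10 at -0.42.

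Klf9 and Klf15, both induced by glucocorticoids in many tissues, were among the members that changed most. Klf9, a repressor that also responds to thyroid hormone, lies on chromosome 19 (23141226 to 23168134, plus strand; ENSMUSG00000033863). It was at 34.1, 31.5 and 33 CPM in saline mice and 75.5, 85.1 and 82.6 CPM in PD mice. The spread within each group was small beside the gap between them. The means were 32.8 ± 1.28 and 81.1 ± 4.96 CPM, a 2.47-fold difference, with the smallest p among the members (log2 fold change 1.30, SE 0.08, adjusted p = 1.86e-07, edgeR's quasi-likelihood test). Scaled to the endothelial markers, its log2 fold change was 0.26 and no longer passed (adjusted p = 0.0583).

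Klf15, a regulator of glucose, amino acid and lipid metabolism, lies on chromosome 6 (90462576 to 90475238, plus strand; ENSMUSG00000030087). It had only 40, 40 and 85 counts in saline mice and 259, 214 and 197 counts in PD mice. These were 1.56, 1.84 and 3.52 CPM against 9.53, 8.97 and 8.93 CPM. The 3rd saline mouse lay apart from the other 2, but below every PD mouse. The fold was 3.95, with a log2 fold change of 1.98 (SE 0.26, adjusted p = 7.97e-05, edgeR's quasi-likelihood test), 2.42 without the 3rd saline mouse and 0.95 (adjusted p = 0.001) with endothelial scaling.

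Klf5, a factor of epithelia and proliferating smooth muscle, was the least abundant member. It lies on chromosome 14 (99298691 to 99315036, plus strand; ENSMUSG00000005148), and had 13, 13 and 14 counts in saline mice and 57, 42 and 55 counts in PD mice. In CPM these were 0.508, 0.6 and 0.58 against 2.1, 1.76 and 2.49. Low counts left a wide error, yet the groups were well apart, by 3.74-fold (log2 fold change 1.90, SE 0.32, adjusted p = 0.000497, edgeR's quasi-likelihood test). Sums of smooth muscle and pericyte markers and of epithelial and acinar markers, from cell types in which Klf5 is known, were also higher in PD mice, as given above, and their part in this difference was not tested. The second sum was carried by the acinar enzyme genes Cpa1, Cela2a and Prss2. The epithelial markers differed. Epcam was at 5.57 ± 1.09 and 6.01 ± 0.49 CPM (adjusted p = 0.622, edgeR's quasi-likelihood test) with overlapping ranges. Cdh1 rose from 1.35 ± 0.0934 to 4.97 ± 0.208 CPM (log2 fold change 1.87, adjusted p = 2.35e-05, same test).

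Klf7, which acts in neurons and in fat and blood precursors, showed the smallest rise. It lies on chromosome 1 (64029447 to 64122282, minus strand; ENSMUSG00000025959). Saline mice had 49.1, 55.8 and 47.5 CPM, and PD mice had 56.6, 58.3 and 62.7 CPM. The 2nd saline mouse nearly reached the lowest PD mouse. The log2 fold change was 0.22 (SE 0.08, adjusted p = 0.0423, edgeR's quasi-likelihood test), and the call was lost in 4 of the 6 fits that left out 1 mouse (adjusted p 0.08 to 0.138; without the 1st or 3rd saline mouse or the 2nd or 3rd PD mouse) and in DESeq2 (adjusted p = 0.0826), without the filter on low counts (0.0565) and with the replicate number as a block (0.0614). With endothelial scaling it was -0.83.

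Klf13 and Klf3, both with known roles in lymphocytes, were the members that fell. Klf13, which in T cells regulates the chemokine gene Ccl5, lies on chromosome 7 (63886351 to 63938915, minus strand; ENSMUSG00000052040). It was at 593, 495 and 531 CPM in saline mice and 291, 307 and 363 CPM in PD mice. Every PD mouse lay far below the lowest saline mouse. The means of 540 ± 49.7 and 321 ± 37.7 CPM differed by a log2 fold change of -0.75 (SE 0.09, adjusted p = 4.95e-05, edgeR's quasi-likelihood test), a fold of 0.593. With endothelial scaling the log2 fold change was -1.79.

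The size of the Klf13 difference depended on which deposited value was used. In the deposited FPKM (fragments scaled to transcript length and library size) it was at 118, 105 and 111 in saline mice and 85.9, 90.9 and 97.6 in PD mice. The direction was the same and the groups stayed apart, but the log2 difference was -0.29 (adjusted p = 0.00447, limma on log2(FPKM + 0.1)). The gap of -0.47 between the log2 fold changes was reached by 49 of 9385 genes with a mean of at least 10 CPM, 0.522% of them, and the median gap was 0.016. Klf5, whose level was below that limit, had a gap of 0.45. The length that the ratio of count to FPKM implies for Klf13 was 5026, 4637 and 4793 bases in saline mice and 3498, 3387 and 3635 bases in PD mice. Klf13 has 4 annotated transcripts, and transcript levels were not analysed here.

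Klf3, which recruits the corepressor CtBP and acts in B cell development, lies on chromosome 5 (64803388 to 64832901, plus strand; ENSMUSG00000029178). It was at 244, 243 and 263 CPM in saline mice and 207, 209 and 223 CPM in PD mice. The fall was small but the groups did not overlap, with means of 250 ± 11 and 213 ± 8.82 CPM. The log2 fold change was -0.23 (SE 0.06, adjusted p = 0.00794, edgeR's quasi-likelihood test), and without the 2nd PD mouse the adjusted p was 0.0524. In the same libraries 5 of 5 B cell, 4 of 5 leukocyte and 2 of 7 T and NK cell markers were called lower in PD mice. This compares with 27.8% of all genes, a share close to that of the T and NK cell markers. The other leukocyte marker, Laptm5, was called higher (0.31, adjusted p = 0.00202, same test). The part of these cell types in the falls of Klf3 and Klf13 was not tested.

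**Figure D3:**
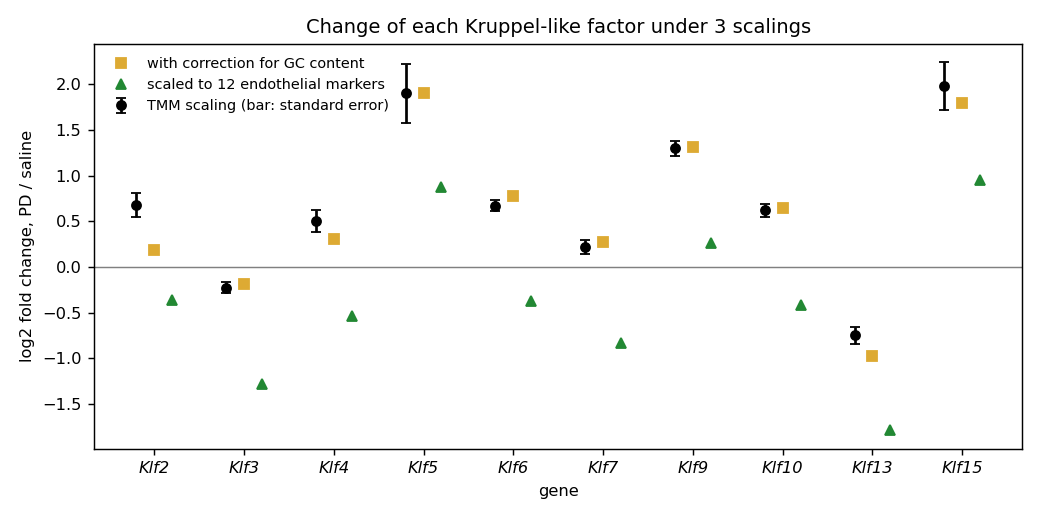
Log2 fold change (PD over saline, y axis) of each member with TMM scaling (black, bars are standard errors), with a correction for GC content (squares) and with scaling to 12 endothelial markers (triangles). The GC correction lowers Klf2 most (0.68 to 0.18), and endothelial scaling puts all members but Klf5, Klf9 and Klf15 below zero.

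Per length, the members ranged from abundant to scarce. In saline mice the FPKM were 125 ± 23.3 for Klf2, 123 ± 5.26 for Klf3, 112 ± 6.27 for Klf13 and 107 ± 5.72 for Klf6, neighbours whose ranges overlapped. Klf10 followed at 61.7 ± 1.56, Klf7 at 19 ± 0.321, Klf9 at 7.29 ± 0.332, Klf4 at 4.75 ± 0.289, Klf15 at 0.989 ± 0.476 and Klf5 at 0.167 ± 0.0139 FPKM, none overlapping the next. In PD mice Klf2 (203 ± 31.6 FPKM) and Klf6 (177 ± 5.58) led with overlapping ranges. Klf3 (98.3 ± 3.76), Klf10 (95.3 ± 4.34) and Klf13 (91.4 ± 5.87) came next and overlapped one another, clear of Klf6. The order of the last 5, Klf7, Klf9, Klf4, Klf15 and Klf5, was the same in both groups. The summed FPKM of the members were 561 ± 21.4 in saline mice and 716 ± 16.3 in PD mice. Of that sum Klf2 took 22.3% in saline and 28.2% in PD mice, Klf6 took 19% and 24.7%, Klf3 took 22% and 13.7%, and Klf13 took 19.9% and 12.8%. Klf4 took 0.849% and 0.95%. With CPM per kilobase of all annotated exons in place of FPKM, 5 members changed place in each group and Klf3 came 5th in saline mice.

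**Figure D4:**
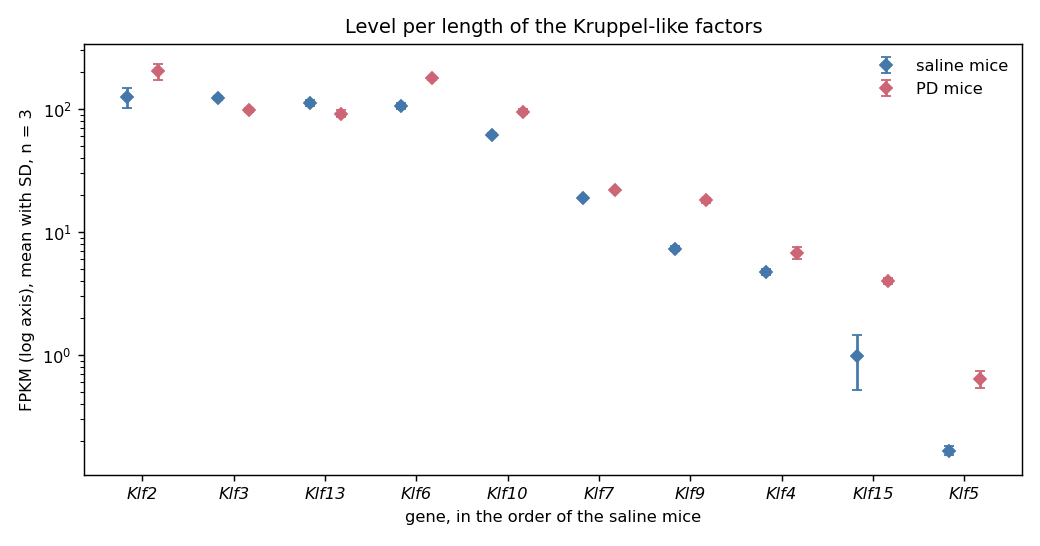
Deposited FPKM (y axis, log scale) of each member as mean and SD over 3 mice per group, in the order of the saline mice (x axis). Klf2, Klf3, Klf13 and Klf6 lie together near the top in saline mice (107 to 125 FPKM), and Klf2 and Klf6 stand above the rest in PD mice.

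The genes most like Klf2 over the 6 mice, by the root mean square difference of log2 CPM after centring each gene, were Nod1 (0.0262), Rbm14 (0.0291) and Znrf1 (0.0356). Their log2 fold changes were 0.69, 0.72 and 0.68. For Klf4 they were Nr2f2 (0.0373), Mgst3 (0.0449) and Fez2 (0.0475). Such likeness was common, with 89 tested genes within 0.1 of Klf2 and 81 within 0.1 of Klf4.

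The rest of the family was scarce or little changed. Of 8 further Kruppel-like genes listed, 4 were tested, and Klf11, a close relative of Klf10, was called higher, from 68.6 ± 3.9 to 79.5 ± 6.77 CPM (log2 fold change 0.21, SE 0.08, adjusted p = 0.0452, edgeR's quasi-likelihood test). That call was lost in DESeq2, in the FPKM test, with the GC correction and without the 1st or 3rd saline mouse or the 2nd or 3rd PD mouse, and Klf11 was at -0.83 with endothelial scaling. Klf8, Klf12 and Klf16 had log2 fold changes of 0.05, -0.12 and 0.29 and were not called (adjusted p 0.858, 0.614 and 0.231). Klf14 and Klf17 had 0 counts in every mouse, which allows up to 3 counts per library. Of the related SP factors 5 of 9 were tested, with 2 called lower and 0 higher, against 27.8% and 31.1% of all genes, Sp3 at -0.22 and Sp4 at -0.65 (adjusted p = 0.0113 and 0.000747, same test). Without the 1st saline mouse or the 2nd PD mouse, 1 SP gene was called lower. Sp1 was at -0.01 (adjusted p = 0.956).

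Genes upstream of Klf2 and Klf4 changed in either direction about as often as all genes, with 6 of 16 higher and 4 lower against 31.1% and 27.8% (median log2 fold change 0.21; all genes 0.02). Piezo1, a mechanosensitive channel, was at 8.7 ± 2.08 CPM in saline and 15.5 ± 2.76 CPM in PD mice (0.83, SE 0.19, adjusted p = 0.00289, edgeR's quasi-likelihood test; 0.42 with the GC correction), and Plxnd1, a flow sensor, was at 1.28 (adjusted p = 0.000421). Of the kinases that carry the flow signal, Map3k3 (MEKK3) rose by 0.37 (adjusted p = 0.00399), while Map2k5 (MEK5, 0.14) and Mapk7 (ERK5, 0.37) were not called (adjusted p = 0.409 and 0.106). Mapk7 was at 0.57 without the 3rd saline mouse (adjusted p = 0.0196) and at 0.05 with the GC correction. The MEF2 genes went in unlike directions. Mef2a rose from 66.9 ± 3.06 to 101 ± 5.89 CPM, Mef2d was at 0.26 (adjusted p = 0.106; 0.0419 without the 3rd saline mouse, 0.0372 with the block, 0.577 with the GC correction), and Mef2c, which B cells also express, fell from 479 ± 15.1 to 223 ± 10.2 CPM (-1.11, SE 0.06, adjusted p = 8.85e-08). Members of the CCM complex, which restrains MEKK3, fell, with Ccm2 at -0.75, Pdcd10 at -0.45 and Krit1 at -0.26 (adjusted p = 1.31e-05, 0.000416 and 0.00965, same test). Krit1, though, was at -0.07 with the GC correction (adjusted p = 0.445). Heg1, the membrane partner of the complex, was at 0.16 (adjusted p = 0.109). B cell markers also fell in these libraries, and the part of leukocyte RNA in the falls of the CCM genes was not tested. With endothelial scaling 0 of the 16 were higher and 12 lower, against 7.35% and 73.6% of all genes. Pecam1, Cdh5 and Kdr are in this list and also among the 12 endothelial markers, so that scaling was set in part by genes of the list. With TMM scaling Cdh5 (0.82) and Kdr (0.98) were among the 6 called higher.

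Genes that flow or KLF2 is known to raise and genes it is known to lower were both mostly higher in PD mice. Of the first kind 17 of 18 tested genes rose and 1 fell (median log2 fold change 1.23), against 31.1% and 27.8% of all genes, or 5 and 7 with endothelial scaling, against 7.35% and 73.6%. With the GC correction 15 were called higher and 1 lower, against 28.1% and 30.6% of all genes. The 12 endothelial markers also rose with TMM scaling, with 11 called higher and a median log2 fold change of 1.03. Tek is in both lists. How far the rise of the flow-raised genes goes beyond that of endothelial genes in general was not tested. Nos3, the endothelial nitric oxide synthase, went from 12.5 ± 3.9 to 39.4 ± 8.9 CPM (1.65, SE 0.22, adjusted p = 8.82e-05, edgeR's quasi-likelihood test). Thbd, the anticoagulant receptor thrombomodulin, went from 36.7 ± 2.1 to 90.6 ± 6.61 CPM (1.30), Plpp3, which degrades lysophosphatidic acid, was at 1.24, and Pi16 had the largest rise at 1.94. S1pr1, the sphingosine-1-phosphate receptor that KLF2 also drives in lymphocytes, was the gene that fell, from 1030 ± 28.1 to 878 ± 6.06 CPM (-0.23, adjusted p = 0.00459). Nppc and Ptgds were too low to test.

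Of the second kind 12 of 12 genes rose (median 1.39), also with the GC correction, or 5 higher and 2 lower with endothelial scaling. The shares of all genes are those just given. The vasoconstrictor gene Edn1 went from 9.95 ± 1.34 to 14.7 ± 0.411 CPM (0.57, SE 0.13, adjusted p = 0.00354, edgeR's quasi-likelihood test) and was at -0.48 with endothelial scaling. The leukocyte adhesion genes Vcam1 and Sele were at 1.13 and 3.04. Ccn2, a matricellular protein gene, was at 1.65 and F3, tissue factor, at 3.13. Many genes of both kinds are also expressed by macrophages, fibroblasts or mesothelial cells, whose markers rose in the same libraries, and that part was not tested.

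**Figure D5:**
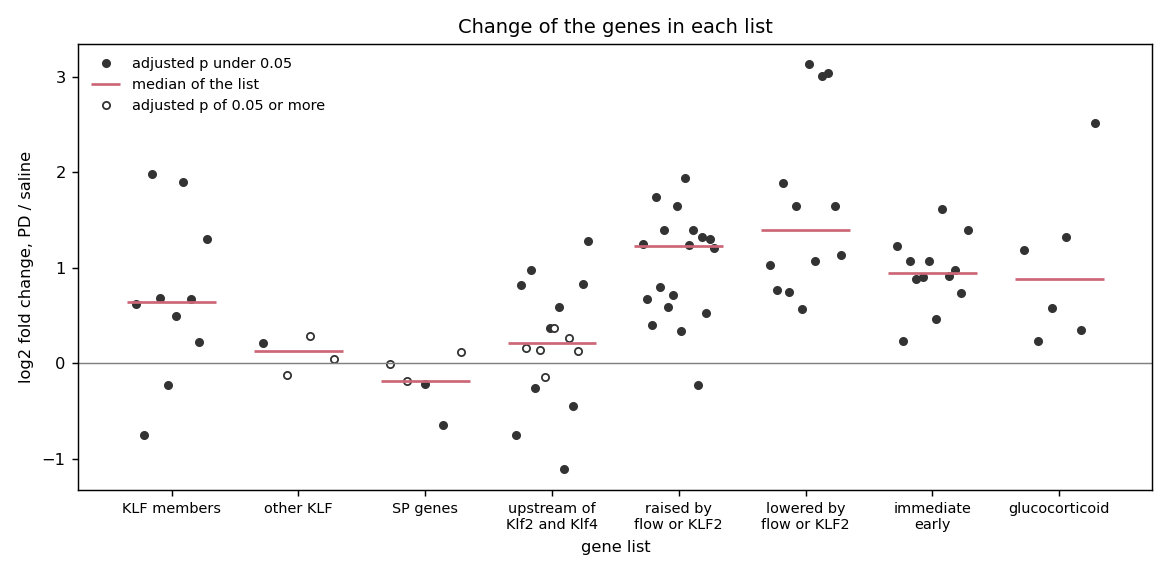
Log2 fold change (PD over saline, y axis) of each tested gene in 8 lists (x axis) with TMM scaling, filled where the adjusted p was under 0.05, with a line at each list's median. Genes raised and genes lowered by flow or KLF2 both lie mostly above zero (medians 1.23 and 1.39), as 8 of the 10 members do, whereas with endothelial scaling 7 members are lower.

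All 12 immediate early genes, which respond within minutes to stimulation and to cell isolation, rose in PD mice with TMM scaling (median 0.95), against 31.1% of all genes. After the GC correction 10 were called higher, against 28.1% of all genes. With endothelial scaling 2 were higher and 3 lower, against 7.35% and 73.6% of all genes. Their summed level was 7388-8132 CPM in saline and 14431-14553 CPM in PD mice. Fos was at 0.90, Jun at 0.91, Egr1 at 0.88, Atf3 at 1.23 and Ier3 at 1.61 (adjusted p of 3.59e-06 or less for each, edgeR's quasi-likelihood test). These genes rose beside Klf2, Klf4, Klf6 and Klf10, which are themselves quickly induced in many cells, and their part in those rises was not tested.

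All 6 glucocorticoid-related genes listed rose with TMM scaling (median 0.89), against 31.1% of all genes. After the GC correction 5 were called higher, against 28.1% of all genes. With endothelial scaling 1 was higher and 3 lower, against 7.35% and 73.6% of all genes. Zbtb16, a sensitive glucocorticoid target, went from 1.49 ± 0.458 to 8.61 ± 2.11 CPM (2.52, SE 0.26, adjusted p = 1.47e-05, edgeR's quasi-likelihood test). Fkbp5, a chaperone partner of the receptor, went from 117 ± 4.5 to 269 ± 11.3 CPM (1.19), Tsc22d3 was at 0.35 and Nr3c1, the receptor itself, at 0.23 (adjusted p = 0.00887). With endothelial scaling Zbtb16 was at 1.48 (adjusted p = 6.63e-06) and Fkbp5 at 0.15 (adjusted p = 0.275) in the same test.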

How the data were processed

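Poly(A) RNA of 6 libraries (3 saline mice, 3 PD mice) was sequenced by the authors on a NovaSeq with a NEBNext Ultra kit. The submitters' processing notes name fastp 0.18.0, Bowtie2 2.2.8, HISAT2, StringTie and RSEM; the genome build and the use of strand in counting are not given in the sources used here. The authors deposited 1 table with a raw count and an FPKM value per gene and mouse, without pooling. It held 22183 genes, 4492 of them without a count; library totals were 21973426 to 26374292.

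Counts were tested with edgeR 4.0.16 (R 4.3.3; filterByExpr, TMM, quasi-likelihood test, no covariate) over 14005 genes with Benjamini-Hochberg adjustment and a threshold of 0.05. The study's methods name limma; limma-voom (limma 3.58.1) and DESeq2 1.42.0 were alternatives. CPM are TMM-scaled. FPKM served for levels between genes and, with limma on log2(FPKM + 0.1), as an alternative. On simulated data the edgeR fit recovered 85 of 100 genes with a log2 change of 1 and 55 of 99 with 0.5. Of 148 genes called there, 8 were unchanged. Far fewer genes changed in the simulation than were called here, so it does not test that setting. Other alternatives were no filter, library totals, scaling to 12 endothelial markers, a replicate block, leaving out each mouse, and a GC correction; the last and the FPKM test were chosen after seeing the data. The correction used a per-library smooth over the GC content of each gene's longest GENCODE M21 transcript. Positions are those of GENCODE M21 (GRCm38), and promoters those of RefSeq (GRCm38.p6). Exons of Klf3 and Klf7 overlap genes on the opposite strand (Gm20033; Gm13748 and Gm26649) that are not rows of the table, and the kit does not mark strand, so such reads cannot be told apart.

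The 10 members, the gene lists and the genes named (all members; list genes chosen for their role, and those with the largest change in each direction) were chosen with earlier results of these data known. Replicates of a group differed beyond counting noise. P-values measure the spread between these mice. Counting floors (3 counts) cover counting error only. Some genes of the lists are counted but not reported by name here.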

Additional observations from a re-analysis of the deposited data

How the results depend on the processing

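Of 45 single genes recomputed, DESeq2, limma-voom, no filter, library totals and the FPKM test kept direction and call in 43 to 45, and the GC correction in 39. Scaling to the endothelial markers kept 15 and reversed 20: Klf2 -0.36, Klf4 -0.54, Klf6 -0.37, Klf7 -0.83, Klf10 -0.42, Klf11 -0.83, Klf16 -0.74, Edn1 -0.48, Piezo1 -0.21, Map3k3 -0.67, Map2k5 -0.90, Mapk7 -0.67, Mef2a -0.45, Mef2d -0.77, Heg1 -0.88, Fos -0.15, Jun -0.13, Egr1 -0.16, Nr3c1 -0.81 and Tsc22d3 -0.69 (log2 fold changes). By construction that scaling shifts all genes alike; with it 2 members were higher and 7 lower, further Kruppel-like genes 0 and 4, SP genes lower 5, upstream genes 0 and 12, genes raised by flow 5 and 7, genes lowered by flow 5 and 2, immediate early genes 2 and 3, and glucocorticoid genes 1 and 3. The count of further Kruppel-like genes called higher, 1, was 0 with DESeq2, FPKM and the GC correction. The GC correction turned the Klf4 to Klf2 difference to 0.13, Map2k5 to -0.03, Klf16 to -0.16 and Sp1 to 0.07; Sp1 was also at 0.00 with library totals and 0.01 with FPKM. The cause was not tested.

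Leaving out each mouse gave 6996 to 8018 genes called (8246 with all mice), 7 to 8 members higher and 1 to 2 lower, 0 to 1 further Kruppel-like genes higher, 1 to 3 SP genes lower, 6 to 8 upstream genes higher, and a Klf4 to Klf2 difference of -0.38 to -0.02. Klf12 ranged from -0.23 to 0.05 and Sp1 from -0.07 to 0.08.

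Same-numbered mice did not deviate together (correlations of 0.188, 0.0671 and -0.274 between saline and PD mice of the same number), so the numbers were not taken as pairs. With the replicate block 7909 genes were called, with 7 members higher (Klf7 lost, adjusted p = 0.0614 in edgeR) and 2 lower, and the Klf4 to Klf2 difference was -0.19. Depth limited Klf5 most, at 13 to 14 counts in saline mice.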
